A study of Mus musculus with 10 samples.

Results

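Expression of 10 genes for matrix proteases, their inhibitors and the plasminogen activators was followed in mouse B-cell lymphomas before and after treatment with Adriamycin (ADR, doxorubicin), a DNA-damaging drug. The genes are Mmp2, Mmp3, Mmp10, Mmp12, Mmp13, Timp1, Timp2, Plau, Plaur and Plat, 10 of 18193 genes that a probe set of the array named alone. They were chosen by name from the known protease and inhibitor families, and each was read from the probe set with the highest mean over all 10 arrays. All samples were primary lymphoma cells taken from the lymph nodes of mice with the genotype Emu-myc;Suv39h1-/-, in which Myc is driven in the B-cell lineage and the histone H3 lysine 9 methyltransferase Suv39h1 is missing. The cells carried a retroviral Bcl2 with puromycin selection and grew on gamma-irradiated NIH 3T3 fibroblasts, which the untreated and the ADR cultures share. Each of 5 lymphomas gave 1 untreated array and 1 array of cells kept in 0.05 µg/ml ADR for 5 days, so that each group holds 5 arrays and the lymphoma number pairs them. Lymphomas with Suv39h1 are not analysed here, and the loss of Suv39h1 was not checked on the arrays.

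Matrix metalloproteinases are zinc-dependent endopeptidases, mostly secreted as inactive proenzymes, that cut collagens, elastin, gelatin and many non-matrix proteins. Tissue inhibitors of metalloproteinases block their active site. Urokinase (Plau), held at the cell surface by its receptor (Plaur), and tissue plasminogen activator (Plat) turn plasminogen into plasmin, which also helps to activate metalloproteinase proenzymes. In lymphoid tissue these proteins are made largely by macrophages, neutrophils and stromal cells, and several are known components of the senescence-associated secretory phenotype.

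Mmp13, Mmp12, Mmp3 and Mmp10 lie in this order in 1 cluster on mouse chromosome 9, from position 7272514, the start of Mmp13, to 7510242, the end of Mmp10 (GRCm38.p6, RefSeq annotation). Promoters of metalloproteinases are known for an element bound by AP-1, the Fos and Jun family of transcription factors. Windows of 300 bases, 250 before to 50 after a transcript start, were in the RefSeq table for 7 of the 10 genes and for 8 starts. The AP-1 element was searched as TGAGTCA or, on the other strand, TGACTCA. It was found in 5 of these 8 windows, those of 5 genes, against 5.2% of the 32851 mouse windows. The last 100 bases before the start are printed for these 5 genes, because the element stands shortly before the start in each; the other start of Mmp12 is printed for contrast, and capitals mark the element.
Mmp13, chr9:7272414-7272513, plus strand: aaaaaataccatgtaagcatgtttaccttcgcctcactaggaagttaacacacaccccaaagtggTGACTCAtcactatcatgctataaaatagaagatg
Mmp12, upstream start, chr9:7344297-7344396, plus strand: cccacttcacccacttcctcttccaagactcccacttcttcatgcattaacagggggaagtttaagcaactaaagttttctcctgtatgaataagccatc
Mmp12, downstream start, chr9:7347274-7347373, plus strand: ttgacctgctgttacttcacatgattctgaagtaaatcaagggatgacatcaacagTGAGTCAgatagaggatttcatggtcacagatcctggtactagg
Mmp3, chr9:7445722-7445821, plus strand: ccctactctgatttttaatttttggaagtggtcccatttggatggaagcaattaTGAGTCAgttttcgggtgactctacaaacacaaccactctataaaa
Mmp10, chr9:7502242-7502341, plus strand: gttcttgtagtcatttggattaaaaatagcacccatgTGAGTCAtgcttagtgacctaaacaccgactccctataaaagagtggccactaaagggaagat
Plaur, chr7:24462383-24462482, plus strand: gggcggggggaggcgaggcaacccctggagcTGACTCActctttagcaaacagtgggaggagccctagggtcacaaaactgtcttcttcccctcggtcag
Counted from the base before the start as -1, the element begins at -35 in Mmp13, at -44 before the downstream start of Mmp12, at -46 in Mmp3, at -63 in Mmp10 and at -69 in Plaur. The Plaur window belongs to a start at 24462483, inside the gene, which begins at 24460937. A window at that upstream position was not searched. The windows of Timp1 and Timp2 and of the upstream Mmp12 start hold no match, which says only that these letters are not there.

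Levels below are log2 array signals, in which a step of 1 is 2-fold, and a change is the ADR signal less the untreated signal of the same lymphoma. The median signal of an array, near which a transcript is hardly told from background, lay between 4.43 and 4.50 on 9 arrays and was 4.15 on the ADR array of lymphoma_1032. Defining markers of B cells were present: 11 of 13 B-cell markers with a probe set passed the filter on low signals. Their summed signal was between 13.47 and 14.81 in untreated cells and between 12.74 and 15.04 with ADR, lowest in the ADR cells of lymphoma_1032. Single markers differed in lymphoma_1032. Ms4a1 was 5.09 untreated and 4.79 with ADR there, Pax5 4.89 and 4.23 and Rag1 1.34 and 2.17. Blnk was 10.99 and 11.11 and Cd79b 10.07 and 9.93. The cultures also carried signals of macrophage and fibroblast genes, which differed between lymphomas and are given beside the results. Summed T-cell markers were between 8.63 and 11.61 untreated and between 8.36 and 11.17 with ADR, and summed endothelial markers between 7.84 and 8.56 and between 7.79 and 8.58. The highest T-cell sums were those of lymphoma_1032 and were mostly Cd5, at 11.26 untreated and 10.71 with ADR. Cd3e was 5.54 and 5.22 there, and Cd4 5.24 and 5.18. In such bulk RNA, fewer cells of a type and less RNA per cell cannot be told apart. The files do not say whether the arrays of a lymphoma came from separate cultures beyond the treatment.

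Of the 10 genes, 6 passed the filter, a signal above 4.43 on at least 5 of 10 arrays: Mmp2, Mmp12, Mmp13, Timp1, Timp2 and Plaur. Mmp3, Mmp10, Plau and Plat did not pass and are described at the array floor. None of the 6 tested genes changed past the threshold in the paired limma fit (adjusted p over 11472 genes, threshold 0.05), where 0% of the genes were called in either direction. At an unadjusted p below 0.05, 2 of the 6 were higher with ADR, Mmp12 and Timp2, beside 3.97% of all tested genes. The mean change was above 0 in all 6 tested genes, beside 44.8% of tested genes. Over all 10 genes it was above 0 in 7, beside 42.9% of the 18193 genes, with a median change of 0.20 against -0.034. The untreated and ADR signals overlapped for each of the 10 genes, and 0.357% of tested genes had groups without overlap.

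**Figure D1:**
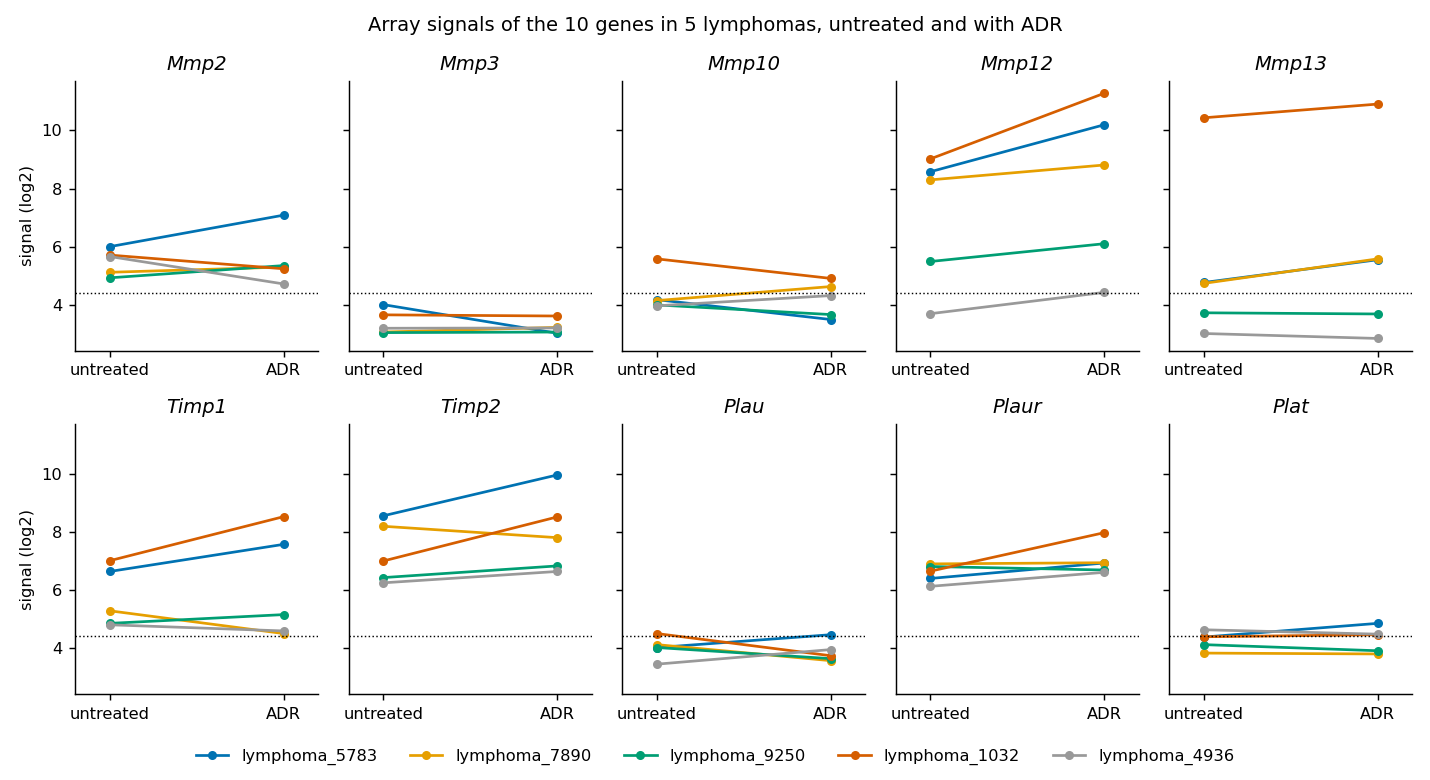
Log2 signal of each gene (vertical axis, 1 panel per gene) in untreated and ADR cells, with a line for each of 5 lymphomas; the dotted line is the median signal of the whole table, 4.43. Mmp12 and Mmp13 differ between lymphomas by more than they change within one, and Mmp3, Plau and Plat stay near or below the dotted line.

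Mmp12, the macrophage elastase, was the gene of the set with the largest average change and the only one higher with ADR in all 5 lymphomas, as 4.67% of tested genes were. Its signal went from 8.58 untreated to 10.19 with ADR in lymphoma_5783, from 8.30 to 8.81 in lymphoma_7890 and from 5.50 to 6.11 in lymphoma_9250. In lymphoma_1032 it went from 9.02 to 11.27. In lymphoma_4936 it went from 3.71 to 4.44, on arrays with medians of 4.48 untreated and 4.45 with ADR. Both signals of lymphoma_4936 thus lay at the array floor. The steps were therefore largest in lymphoma_1032 and lymphoma_5783, which also had the highest untreated levels, and between 0.51 and 0.73 in the others. The mean was 7.02 ± 2.31 (SD, n = 5) untreated and 8.16 ± 2.84 with ADR, a change of 1.14 ± 0.76 with a 95% interval of 0.51 to 1.77, or 2.21-fold. An average rise of at least 2-fold was seen in 0.27% of tested genes, and 56 genes had a smaller p. The change of Mmp12 did not pass the threshold (adjusted p = 0.565 in limma, and 0.22 to 1 over the alternative settings). Over lymphoma_7890, lymphoma_9250 and lymphoma_4936 alone the mean change was 0.62, in a fit of these 3 lymphomas that was chosen after the data were seen.

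The untreated levels of Mmp12 spanned 5.31 between lymphomas, several times the change with ADR. Only 64 of 11472 tested genes, 0.558%, had a larger SD between the untreated lymphomas. The order of the untreated levels, from lymphoma_4936 over lymphoma_9250, lymphoma_7890 and lymphoma_5783 to lymphoma_1032, was the same with ADR. With 1 array per lymphoma and condition the neighbours lymphoma_7890 and lymphoma_5783, and lymphoma_5783 and lymphoma_1032, were closer than the mean change in untreated cells and have no replicate spread of their own. Of the 22 macrophage markers 14 were tested, and 13 of the 22 were higher on average, beside 42.9% of the 18193 genes. The summed signals of these markers were 10.92 to 14.54 untreated and 10.68 to 15.36 with ADR. Their summed signal changed most in lymphoma_5783, by 1.68, and in lymphoma_1032, by 1.26; the change was 0.38 in lymphoma_4936, 0.34 in lymphoma_7890 and -0.23 in lymphoma_9250. The sum follows its brightest genes, such as the lysozyme gene Lyz2, which went from 11.61 to 13.71 in lymphoma_5783. The mean change over the 22 markers was smaller, 0.17 in lymphoma_5783, 0.49 in lymphoma_1032, 0.05 in lymphoma_4936, -0.03 in lymphoma_7890 and -0.10 in lymphoma_9250. In lymphoma_5783 some markers went the other way, among them Mrc1 from 7.64 to 4.70, C1qa from 6.82 to 3.91 and C1qb from 7.55 to 5.14. Mmp12 was higher with ADR in lymphoma_9250 as well, where the macrophage sum was lower. Single markers went either way there. Lyz2 went from 9.40 to 8.81 and Adgre1 from 6.09 to 5.02, Mpeg1 from 8.06 to 8.39 and Marco from 4.38 to 5.43. Of the 22 markers Cd163, Vsig4 and Mertk were above the array median on no array. The part of macrophage RNA in the Mmp12 signal was not tested.

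The tested genes most like Mmp12, by the smallest root mean square difference of mean-centred log2 signals over the 10 arrays, were Ms4a6d at 0.62, the chemokine Ccl6 at 0.67 and the lysozyme gene Lyz1 at 0.70. The spread of Mmp12 about its own mean was 2.39 on that scale. Ms4a6d had an average change of 0.82, Ccl6 of 1.10 and Lyz1 of 0.90, each higher in 4 of 5 lymphomas. The 10 arrays share lymphomas in pairs, so that these distances rest largely on the differences between lymphomas.

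**Figure D2:**
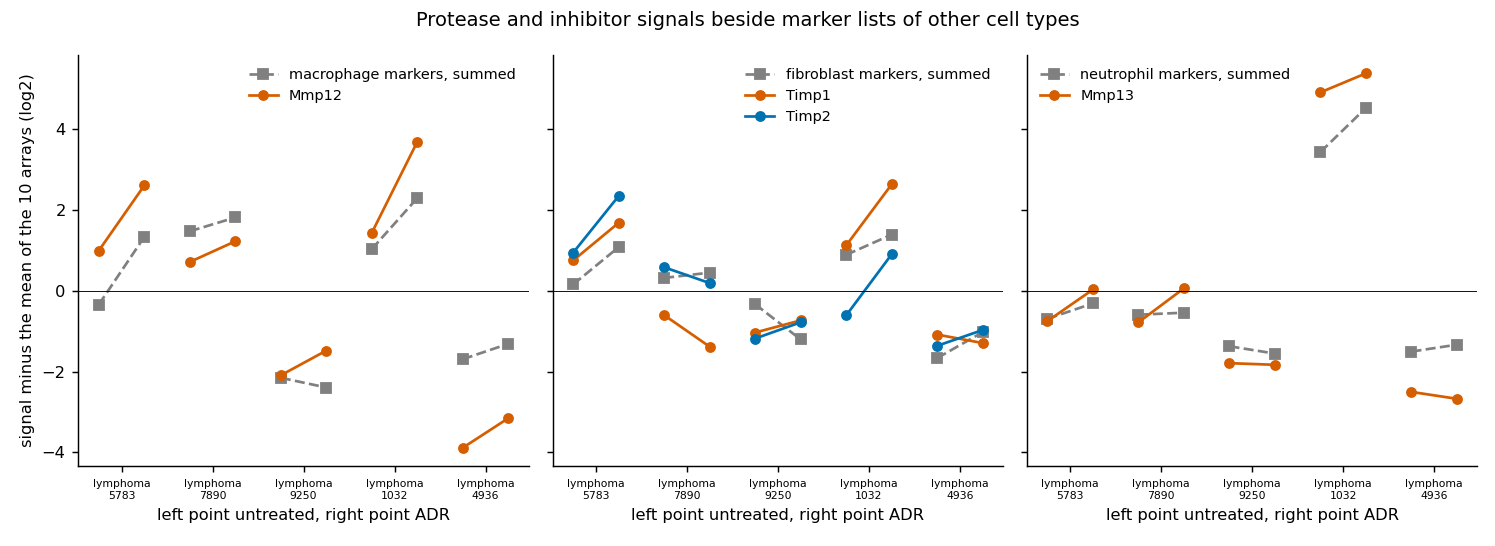
Log2 signal minus the mean of the 10 arrays (vertical axis) for Mmp12, Timp1 and Timp2, and Mmp13, each beside the log2 summed signal of macrophage, fibroblast or neutrophil markers; for each lymphoma the left point is untreated and the right point is ADR. Mmp12 is higher with ADR in lymphoma_9250, where the macrophage sum is lower. In lymphoma_1032 Mmp13 and the neutrophil sum, which is mostly Lcn2 there, stand far above the rest.

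Mmp13, an interstitial collagenase, differed more between lymphoma_1032 and the other lymphomas than between untreated and ADR cells. Its signal in lymphoma_1032 was 10.43 untreated and 10.90 with ADR. In the other untreated cells it read 4.78 in lymphoma_5783, 4.75 in lymphoma_7890, 3.74 in lymphoma_9250 and 3.03 in lymphoma_4936, and with ADR it was 5.56, 5.59, 3.70 and 2.86 in the same order. Both arrays of lymphoma_1032 thus stood at least 4.85 above the 8 other arrays, a gap that 1 other tested gene exceeded. A gap of 2 or more in this lymphoma was found in 0.209% of tested genes. Within lymphomas the changes were small next to this: 0.78 in lymphoma_5783, 0.84 in lymphoma_7890, 0.47 in lymphoma_1032, -0.05 in lymphoma_9250 and -0.17 in lymphoma_4936. The mean change was 0.38 ± 0.46 (SD, n = 5), with a 95% interval of -0.05 to 0.80 and an adjusted p of 0.587 in limma.

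The genes most like Mmp13 over the 10 arrays were the cytokine gene Il6 at 0.63, the neutrophil lipocalin Lcn2 at 0.70 and the cystatin family gene Stfa3 at 0.80, against a spread of 2.72 of Mmp13 about its own mean. Each had its highest signal in lymphoma_1032. Il6 reached 10.99 untreated and 11.94 with ADR there, Lcn2 12.76 and 13.58, and Stfa3 11.21 and 13.14. The 12 neutrophil markers with a probe set, of which 4 were tested and Lcn2 is 1, had a summed signal of 12.95 untreated and 14.04 with ADR in lymphoma_1032. In the other lymphomas their sum was between 8.02 and 8.93 untreated and between 7.97 and 9.21 with ADR. Most of the sum in lymphoma_1032 is Lcn2 itself, and S100a8 was also above the other lymphomas there, at 9.08 untreated and 11.43 with ADR. The receptor gene Csf3r was not highest in lymphoma_1032, with 5.23 untreated and 4.86 with ADR against 5.63 and 5.43 in lymphoma_7890. S100a9, Mpo, Ngp, Camp and Cxcr2 were above 4.43, the median signal of the whole table, on no array. On the ADR array of lymphoma_1032, with its lower median of 4.15, Ngp read 4.23. The part of neutrophil RNA in the Mmp13 signal was not tested.

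The stromelysins Mmp3 and Mmp10, close relatives that cleave proteoglycans and activate other metalloproteinases, were at the floor of the array. Mmp3 was between 3.06 and 4.02 untreated and between 3.04 and 3.63 with ADR, below the array median on all 10 arrays. Its only step beyond 0.2 in size was in lymphoma_5783, from 4.02 to 3.04, both below the floor used here. Mmp10 was above 4.43 on 3 arrays: 5.59 untreated and 4.92 with ADR in lymphoma_1032, and 4.64 with ADR in lymphoma_7890. On the other arrays it lay between 3.51 and 4.33. In the fit without the filter the mean changes were -0.17 ± 0.46 for Mmp3 and -0.17 ± 0.56 for Mmp10 (SD, n = 5), with adjusted p = 0.817 and 0.836 in limma. Of the genes described here, 4 lie in the cluster on chromosome 9. Each has the AP-1 element printed above, Mmp12 only before its downstream start. Mmp12 was above the median signal of the whole table, 4.43, on 9 arrays, Mmp13 on 6, Mmp10 on 3 and Mmp3 on 0.

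Mmp2, the gelatinase A of fibroblasts and other stromal cells, was seen at low signals. It went from 6.01 to 7.09 in lymphoma_5783, from 5.13 to 5.31 in lymphoma_7890 and from 4.94 to 5.36 in lymphoma_9250. It went from 5.72 to 5.25 in lymphoma_1032 and from 5.67 to 4.73 in lymphoma_4936, so that the direction differed between lymphomas. The mean change of 0.05 ± 0.78 (SD, n = 5) had a 95% interval of -0.59 to 0.70 and an adjusted p of 0.966 in limma. It was -0.20 without lymphoma_5783. The other probe set of Mmp2 had a lower mean signal, 4.60 against 5.52, and a mean change of 0.63 ± 0.51, higher in 4 of 5 lymphomas. In lymphoma_4936 the probe sets differed in sign, at -0.94 and 0.76, so that the change of Mmp2 is uncertain there. The mean change also depended on the probe set. Averaged over its probe sets it was 0.34, with an adjusted p of 0.639 in limma. Cox6b2, at a difference of 0.25, and the stromal gene Aebp1, at 0.27, were most like Mmp2, whose own spread was 0.63, followed by Krit1 at 0.30.

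**Figure D3:**
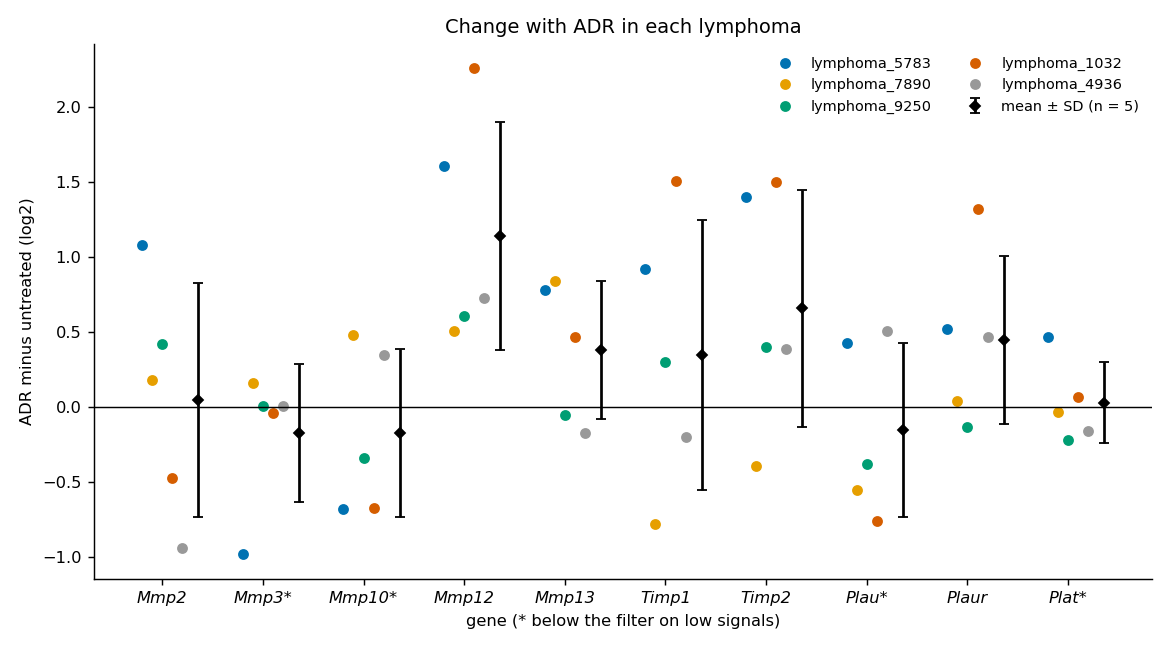
ADR minus untreated in log2 (vertical axis) for each gene, with a point for each of 5 lymphomas and the mean ± SD beside them; a star marks genes below the filter. All 5 points of Mmp12 lie above 0, and those of the other genes lie on both sides of it.

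Both inhibitors had their largest steps upward in lymphoma_5783 and lymphoma_1032. Timp1, an inhibitor that cytokines induce, went from 6.64 to 7.57 in lymphoma_5783 and from 7.01 to 8.52 in lymphoma_1032. In lymphoma_7890 it went from 5.29 to 4.51, in lymphoma_9250 from 4.86 to 5.16 and in lymphoma_4936 from 4.81 to 4.60. Both arrays of lymphoma_5783 and lymphoma_1032 were above all arrays of the other 3 lymphomas. The mean change was 0.35 ± 0.90 (SD, n = 5), with a 95% interval of -0.38 to 1.08 and an adjusted p of 0.74 in limma. It was 0.059 without lymphoma_1032 and 0.21 without lymphoma_5783.

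Timp2, which inhibits metalloproteinases and also takes part in the activation of proMmp2, went from 8.55 to 9.95 in lymphoma_5783 and from 7.00 to 8.51 in lymphoma_1032. It went from 8.19 to 7.80 in lymphoma_7890, from 6.43 to 6.83 in lymphoma_9250 and from 6.25 to 6.64 in lymphoma_4936. It was higher with ADR in 4 of 5 lymphomas, with steps of 1.40 and 1.50 in lymphoma_5783 and lymphoma_1032 and of about 0.4 in lymphoma_9250 and lymphoma_4936. The mean was 7.29 ± 1.04 (SD, n = 5) untreated and 7.95 ± 1.35 with ADR, a change of 0.66 ± 0.79, or 1.58-fold, with a 95% interval of 0.01 to 1.31. It did not pass the threshold (adjusted p = 0.577 in limma). Over lymphoma_7890, lymphoma_9250 and lymphoma_4936 alone the change was 0.13 for Timp2 and -0.23 for Timp1. This choice was made after the data were seen and leaves out the lymphomas with the largest rises, so that a smaller mean follows from it.

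The 6 probe sets of Timp2 did not give 1 answer. The next highest by mean signal changed by 0.40 ± 0.91 and 0.32 ± 0.87 (SD, n = 5), with 1.98 and 1.71 in lymphoma_5783 but 0.39 and 0.52 in lymphoma_1032, where the probe set used gave 1.50. The remaining probe sets, with mean signals of 5.01, 4.10 and 3.12, had mean changes of -0.16, -0.10 and -0.11. Averaged over the 6 probe sets the change was 0.17, with an adjusted p of 0.804 in limma. A higher signal in lymphoma_5783 was common to the 3 brightest probe sets, and the size in lymphoma_1032 was not.

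**Figure D4:**
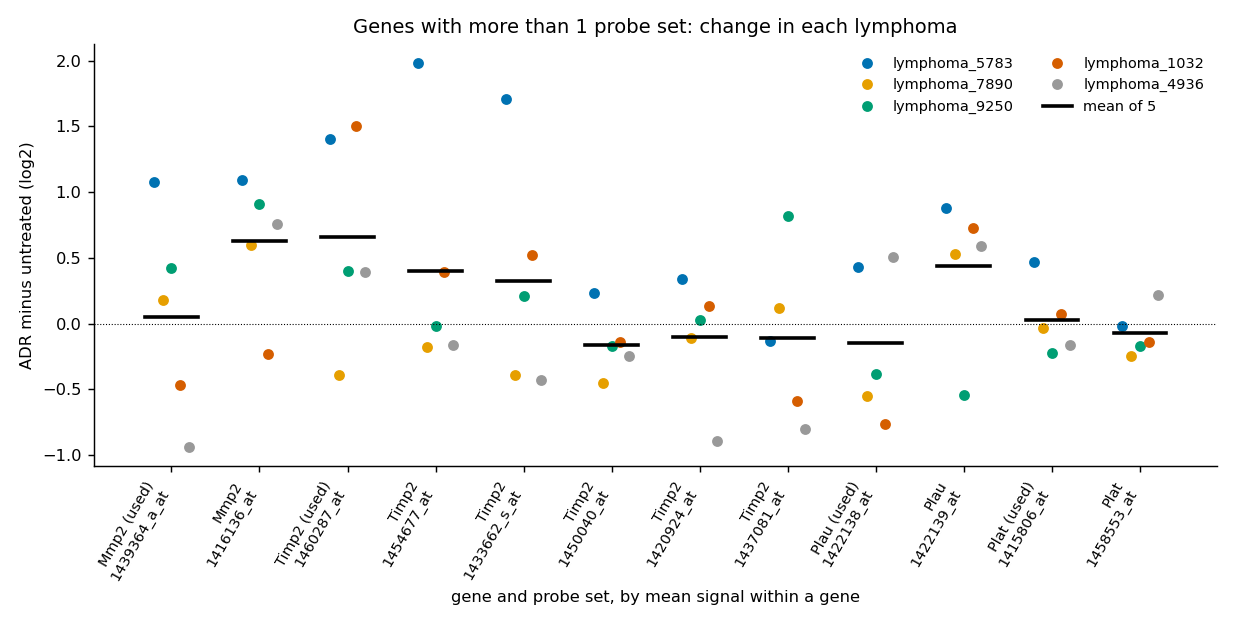
ADR minus untreated in log2 (vertical axis) for every probe set of Mmp2, Timp2, Plau and Plat, with a point for each of 5 lymphomas and a bar at their mean; within a gene the probe sets run from high to low mean signal. The 3 brightest Timp2 probe sets have means of 0.66, 0.40 and 0.32, and those of Plau have means of -0.15 and 0.44.

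The fibroblast list, whose transcripts the feeder layer of either group may hold, had 26 members with a probe set, of which 18 were tested. Of the 26 markers, 20 were higher on average, beside 42.9% of the 18193 genes. Their summed signal was between 11.07 and 13.62 untreated and between 11.53 and 14.12 with ADR. It changed by 0.92 in lymphoma_5783, 0.51 in lymphoma_1032, 0.64 in lymphoma_4936, 0.13 in lymphoma_7890 and -0.87 in lymphoma_9250. Vim and S100a4, which other cells also express, are among the brightest genes of this sum, and in lymphoma_9250 Vim went from 11.28 to 10.32 and S100a4 from 10.93 to 9.32. The mean change over the 26 markers was 0.71 in lymphoma_5783, 0.48 in lymphoma_1032, 0.22 in lymphoma_4936, -0.03 in lymphoma_7890 and -0.10 in lymphoma_9250. Other markers went either way in lymphoma_9250. Fn1 went from 7.23 to 7.55 and Bgn from 6.18 to 6.60. Sparc went from 6.33 to 5.41, Fstl1 from 5.57 to 5.13 and Thbs1 from 4.64 to 3.26. Among the 26 markers Lum was above the array median on no array. The genes most like Timp1 were the matrix genes Fn1 at 0.44, Fbln2 at 0.45 and Bgn at 0.47, against its own spread of 1.35. Fn1 and Bgn are on the fibroblast list. Those most like Timp2 were Arhgap24 at 0.41, the chromatin gene Hmga2 at 0.52 and Lhfp at 0.53, against a spread of 1.13. The part of feeder or stromal RNA in the Timp1, Timp2 and Mmp2 signals was not tested.

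In the plasminogen system, the receptor was well measured and both activators were at the floor. Plaur, the urokinase receptor, went from 6.40 to 6.93 in lymphoma_5783 and from 6.90 to 6.94 in lymphoma_7890. It went from 6.81 to 6.69 in lymphoma_9250, from 6.65 to 7.97 in lymphoma_1032 and from 6.13 to 6.61 in lymphoma_4936. The untreated lymphomas were close together, with an SD of 0.31 that 56.5% of tested genes exceeded, and the ADR cells of lymphoma_1032 stood above them. The mean change was 0.45 ± 0.56 (SD, n = 5), or 1.36-fold, with a 95% interval of -0.04 to 0.93 and an adjusted p of 0.579 in limma. It was 0.23 without lymphoma_1032. Ap2m1, the growth factor gene Pdgfa and Renbp were most like Plaur, each at 0.21 against a spread of 0.46.

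Plau, the urokinase gene, was between 3.46 and 4.51 untreated and between 3.58 and 4.47 with ADR, above the array median on 2 of 10 arrays. Plat, the tissue activator, was between 3.84 and 4.64 untreated and between 3.81 and 4.86 with ADR, above it on 4 arrays. The mean changes in the fit without the filter were -0.15 ± 0.58 and 0.03 ± 0.27 (SD, n = 5), with adjusted p = 0.871 and 0.972 in limma. The dimmer probe set of Plau, below 4.43 on all arrays, had a change of 0.44 ± 0.56 in the opposite direction. Signals this low give no firm direction.

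Related genes were read from 7 lists, in which 0 of the tested members changed past the threshold in either direction (smallest adjusted p = 0.565 in limma). Of 18 other metalloproteinases, 13 had a named probe set and 6 were tested, with 2 higher and 4 lower on average and a median change of -0.047. Mmp9, the gelatinase B of neutrophils and macrophages, had 5.72 ± 1.21 untreated and 6.82 ± 1.86 with ADR (SD, n = 5). Its change of 1.10 ± 0.91 (adjusted p = 0.565 in limma) was made of 2.14 in lymphoma_5783, 1.84 in lymphoma_1032, 1.03 in lymphoma_4936, 0.61 in lymphoma_9250 and -0.10 in lymphoma_7890. Mmp8, the neutrophil collagenase, changed by 0.95 ± 1.29, with 2.80 in lymphoma_1032 and 1.62 in lymphoma_5783. Mmp14, a membrane-bound enzyme that activates proMmp2 together with Timp2, changed by -0.37 ± 0.35 and was lower in 4 of 5 lymphomas. Mmp8 and Mmp9 are also on the neutrophil list. Of the other inhibitors 1 of 5 was tested, Reck, with a change of -0.051 ± 0.96.

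Among plasminogen system partners, 7 of 15 were tested, 4 higher and 3 lower on average. Itgam, a myeloid integrin chain that is also on the macrophage list, changed by 0.67 ± 0.78, S100a10, part of a plasminogen receptor, by 0.33 ± 0.45 and Plgrkt, a plasminogen receptor, by 0.29 ± 0.48. The urokinase inhibitor Serpinb2 was below the filter and was named after its values were seen: it went from 5.93 to 9.23 in lymphoma_1032 and was between 2.01 and 4.60 on the other arrays. Of the ADAM proteases 7 of 11 were tested, 4 higher and 3 lower. Adam19 changed by -0.89 ± 1.13, Adam8 by 0.31 ± 0.48 and Adam9 by -0.18 ± 0.19. Of the ADAMTS proteases 2 of 17 were tested, Adamts10 at -0.28 ± 0.38 and Adamts6 at -0.023 ± 0.50.

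Cathepsins, lysosomal and secreted proteases, and their cystatin inhibitors had 14 of 17 members tested, 11 higher and 3 lower on average, with a median change of 0.32 against -0.024 over all tested genes. Of all tested genes 44.8% were higher on average. Ctsc changed by 0.56 ± 0.23, Ctsd by 0.57 ± 0.44 and Ctss by 0.40 ± 0.26 (SD, n = 5), each with an adjusted p of 0.565 in limma. Each was higher in all 5 lymphomas, as 4.67% of tested genes were. These genes were picked for the smallest p of their list, which favours an even direction. The AP-1 genes, whose element stands before a start of 5 of the 10 genes, had 11 of 12 tested, 3 higher and 8 lower, with a median change of -0.13. Atf3 changed by -0.89 ± 0.97, Maff by -0.32 ± 0.33 and Mafk by 0.16 ± 0.24. These had the smallest p of the list, and none of them is a Fos or Jun gene. Fos itself changed by -0.38 ± 1.55 and Jun by -0.19 ± 0.55, each higher in 2 of 5 lymphomas.

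**Figure D5:**
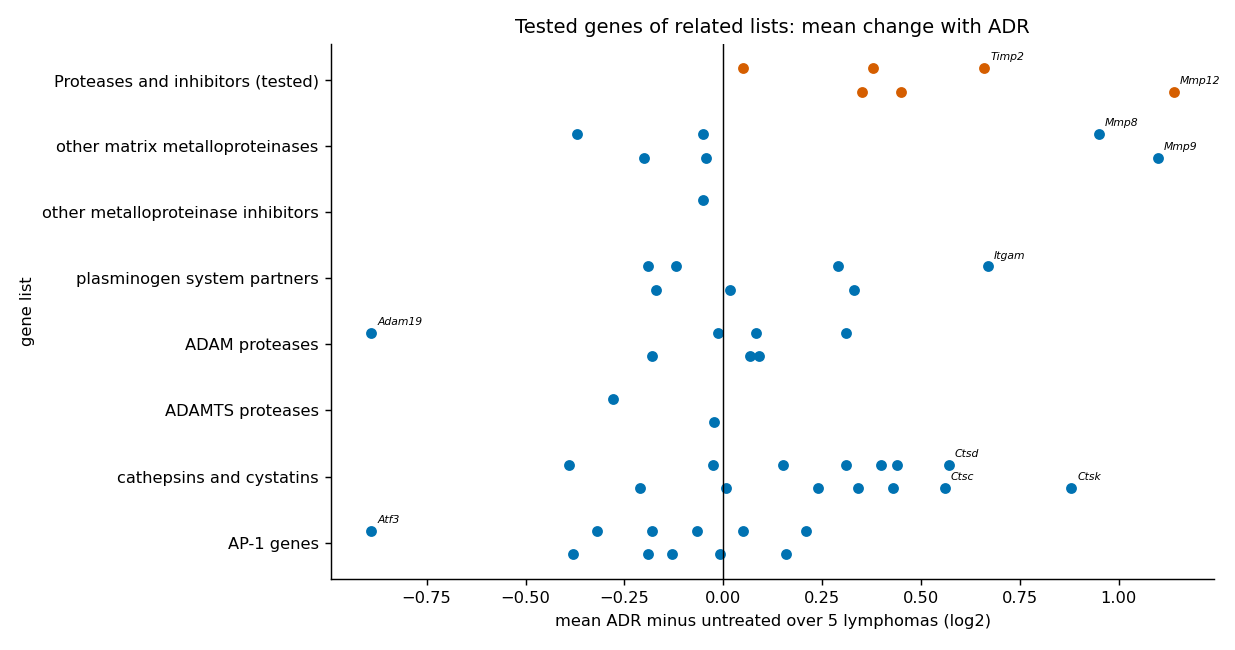
Mean ADR minus untreated in log2 over 5 lymphomas (horizontal axis) for each tested gene of the protease and inhibitor set and of 7 related lists (rows), with the widest changes named. Mmp12 at 1.14 and Mmp9 at 1.10 lie farthest to the right, and Adam19 and Atf3, both at -0.89, farthest to the left.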

How the data were processed

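Affymetrix mouse arrays measured total RNA of 10 samples. The submitters' processing notes name RMA and Partek as the tools behind the deposited log2 signals. Neither versions nor settings are stated there, and the log base was read from the range of the values. Of 45101 probe sets, 34945 carried exactly 1 gene symbol in the platform annotation, 932 several, and 9160 none; 64 were controls. Gene IDs of 34741 were found in the RefSeq table and 0 symbols were replaced. Each of 18193 genes was read from its probe set with the highest mean. The filter, a signal above the table's median of 4.43 on 5 or more arrays, left 11472 genes to test. A linear model with the lymphoma as a block was fitted in limma 3.58.1 (R 4.3.3), and p-values were adjusted by the Benjamini-Hochberg method over all genes tested. The fit was tested on simulated data. The lymphoma number pairs samples, per the labels; over genes, the deviations of a pair's arrays from their group means had correlations of 0.51 to 0.79.

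The 10 genes, the lists and the tests were chosen with earlier results of these data known. Named beside the 10 genes were the 3 tested genes with the smallest p of each of 7 related lists, and the 3 genes most like each tested gene. Serpinb2, Fos and Jun were added after their values were seen. Probe sets with no named gene were left out. A marker list's summed signal is the log2 of its genes' summed linear signals. The number of arrays limits the precision. With the lymphoma as a block, p-values rest only on how the change varied between these 5 lymphomas, with variances moderated over all genes by limma. Alternatives were a fit without the block, no filter or a stricter one (70th percentile), averaged probe sets, a further quantile normalization, centred arrays, weighted arrays, a robust prior with a trend, and each lymphoma left out in turn; the fit of 3 lymphomas was added after the data were seen. Promoter sequences are from RefSeq, GRCm38.p6. Python 3.11.15, pandas 2.3.3 and matplotlib 3.10.9 were used.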

Additional observations from a re-analysis of the deposited data

Results flagged for a closer look

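In each group of 5 values, the gap of the highest or lowest value to its neighbour was set against the whole range, with 0.71 as the critical share (Dixon's test, 95% level). Of 30 groups of values 5 passed, where about 1 in 20 would by chance, and genes sharing a lymphoma are not independent. In lymphoma_1032 they were Mmp13 in untreated cells, at 10.43 against a next value of 4.78, Mmp10 in untreated cells, at 5.59 against 4.19, and Plaur in ADR cells, at 7.97 against 6.94. In lymphoma_5783 they were Mmp2 in ADR cells, at 7.09 against 5.36, and the change of Mmp3, at -0.98 against -0.04, between signals that were both below the array median. The median of the ADR array of lymphoma_1032 was 4.15, and its part in these values was not tested.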

How the results depend on the processing

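No gene passed the threshold in limma under any setting, 0 of 11472 with the lymphoma as a block (973 at an unadjusted p below 0.05) and 0 without the replicate block (262), and neither did any of the 10 genes. Of 81 values of the 6 tested genes under an alternative 4 changed sign, and so did 8 of 44 of the genes below the filter. Mmp2 was -0.20 without lymphoma_5783 and -0.036 without lymphoma_9250, in a range of -0.20 to 0.30 when 1 lymphoma was left out. With the mean of its probe sets Mmp2 was 0.34. Over lymphoma_7890, lymphoma_9250 and lymphoma_4936 alone Mmp2 was -0.11 and Timp1 -0.23. That fit leaves out lymphoma_5783, where Mmp2 rose most, and lymphoma_1032, where Timp1 rose most. The ranges without 1 lymphoma were 0.86 to 1.30 for Mmp12, 0.26 to 0.51 for Mmp13, 0.059 to 0.63 for Timp1, 0.45 to 0.92 for Timp2 and 0.23 to 0.59 for Plaur. With weighted arrays Timp1 was 0.11, Timp2 0.43 and Plaur 0.28. Among genes below the filter, Mmp3 was 0.033 without lymphoma_5783, Plau 0.0024 without lymphoma_1032 and 0.14 with the mean of its probe sets, and Plat -0.082 without lymphoma_5783 and -0.022 with that mean. Over the 3 lymphomas alone Mmp3 was 0.059, Mmp10 0.16 and Plat -0.13. The adjusted p of Mmp12 was lowest, 0.22, without lymphoma_4936. Centring each array moved the median change of all tested genes from -0.024 to 0.057 and left Mmp12 at 1.22. Signals near the array median limit what can be said of Mmp3, Mmp10, Plau and Plat.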
